A study of Mus musculus with 18 samples.

Results

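The MHC class II presentation genes followed here are 7 named genes of the 19094 protein-coding genes in the deposited table. They are the class II chains H2-Aa, H2-Ab1 and H2-Eb1, the invariant chain gene Cd74, the peptide loading genes H2-DMa and H2-DMb1, and the regulator Ciita. They were chosen by name, all 7 were listed, and all 7 had enough counts to be tested in each of the 4 comparisons. RNA was sequenced from cardiomyocytes and from cardiac fibroblasts of 3 Bag3-P209L Tg+ mice, which carry a transgene for the co-chaperone BAG3 with proline exchanged for leucine, and of 3 Bag3-WT mice, all aged 16 months. The 2 cardiomyocyte libraries of a mouse (rep1 and rep2) were summed, and each mouse also had 1 fibroblast library, so that 18 libraries became 12 columns, with the mouse as the unit. The labels do not name the promoter that drives the transgene, the strain, or how the cells were purified.

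MHC class II molecules are paired alpha and beta chains that carry peptides from the endosome to the cell surface, where CD4+ T cells read them. The chains are made together with the invariant chain, which fills the peptide groove and guides the complex to endosomes. There H2-DM, the product of H2-DMa and H2-DMb1, exchanges the last invariant chain fragment for a peptide. Class II genes are known above all from macrophages, dendritic cells and B cells, and many other cells switch them on under interferon gamma. CIITA is the co-activator that these promoters need. It binds no DNA itself but docks on the RFX complex, CREB and NF-Y, which sit on the X and Y boxes just before the start site.

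The promoters are shown first, and whether their boxes bear on the values that follow was not tested. RefSeq windows on GRCm38.p6, from 250 bases before to 50 after the start, matched 4 of the 7 genes (5 windows). The Y box was searched as TGATTGG. The core of the X box was searched as AACNNTGA or AACNNNTGA, starting 20 to 45 bases before the Y box. Both strands were searched, the motifs do not overlap, and their letters were settled after reading these promoters. In the stretches below, given on the gene's strand, the capitals are first the X core and then the Y box.
H2-Aa: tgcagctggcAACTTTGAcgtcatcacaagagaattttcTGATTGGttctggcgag
H2-Eb1: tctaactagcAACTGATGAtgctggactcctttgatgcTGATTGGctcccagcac
H2-DMb1: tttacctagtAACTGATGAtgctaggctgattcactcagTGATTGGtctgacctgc
The H2-Aa stretch lies on the minus strand at chr17:34287857-34287912. The H2-Eb1 stretch lies on the plus strand at chr17:34305768-34305822, and the H2-DMb1 stretch on the plus strand at chr17:34153089-34153144. The Y box begins 50 bases before the start of H2-Aa, 61 before that of H2-Eb1 and 63 before that of H2-DMb1. The X core begins 28 or 29 bases before the Y box in all 3. The spaced combination was found in 37 of 32851 RefSeq windows of that length (0.113%), and the Y box alone in 2568 (7.82%). Of those 37 windows, 5 belonged to class II genes, namely these 3 and the relatives H2-DMb2 and H2-Ob. The relatives H2-Eb2 and H2-Oa held the Y box without this X core. The 2 windows of H2-DMa held neither, which says only that these letters are not in those windows.

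Columns held 10.9 to 17.2 M counts in cardiomyocytes and 17.3 to 61.3 M in fibroblasts (M, mega). The 13 mitochondrial genes took 51.7 to 85.5% of the counts in cardiomyocyte columns and 16.7 to 74.2% in fibroblast columns, which left 2.26 to 7.79 M nuclear counts per cardiomyocyte column and 11.3 to 15.8 M per fibroblast column. All 8 cardiomyocyte markers were higher in cardiomyocytes. Of 8 fibroblast markers only Tcf21 was higher in fibroblasts (none without Tg+ mouse 3, described next), and Col1a1 and Col1a2 were higher in cardiomyocytes, so the markers did not set the fibroblast columns apart in the direction of their label. Bag3, the gene named in the genotype, averaged 62.0 ± 15.1 CPM in Tg+ cardiomyocytes and 74.1 ± 49.1 CPM in those of Bag3-WT mice (SD, n = 3 mice each). In fibroblasts Bag3 averaged 156 ± 65.5 CPM in the Tg+ mice, against 143 ± 39.1 CPM in the Bag3-WT mice. It therefore did not mark the genotype (adjusted p = 1.00 and 0.939, edgeR), and the labels do not say whether transgene reads were counted in it.

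Tg+ mouse 3 stood apart. It had the lowest value of all 6 mice for each of the 7 genes in both cell types. Its animal code holds the letter F, like those of Tg+ mouse 1 and WT mouse 1, whose columns held 0 counts of the Y-linked gene Ddx3y. The cardiomyocyte column labelled Tg+ mouse 3 held 62 counts of Ddx3y and 172 of Eif2s3y, and the fibroblast column of that label 0 of each. Of the other Y-linked genes, the cardiomyocyte column of that label held 0 counts of Uty and 1 of Kdm5d. In cardiomyocytes of the mice coded M there were 21 to 36 of Uty and 9 to 16 of Kdm5d. Those columns held 101 to 274 counts of Ddx3y and 59 to 190 of Eif2s3y. Cardiomyocytes of Tg+ mouse 1 and WT mouse 1 held 24 and 19 counts of Eif2s3y. The columns labelled Tg+ mouse 3 may thus not come from 1 animal, in which case neither its within-mouse difference nor its place as a block holds. The class II fold changes are therefore given with and without it.

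Class II levels were lower in cardiomyocytes than in fibroblasts for all 7 genes. Levels are counts-per-million values (CPM) with TMM scaling, which corrects library sizes for composition. Cd74 had a lowest, median and highest level of 75.3, 323 and 488 CPM in cardiomyocytes, against 824, 2240 and 2579 CPM in fibroblasts (6 mice each). H2-Ab1, the beta chain of I-A, had 48.5, 166 and 221 CPM in cardiomyocytes and 312, 1179 and 1396 CPM in fibroblasts. The ranges of both genes did not meet, so that the lowest fibroblast column, that of Tg+ mouse 3, still lay above the highest cardiomyocyte column.

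H2-Aa, the alpha chain of I-A, had 31.5, 102 and 169 CPM in cardiomyocytes, against 255, 717 and 805 CPM in fibroblasts. H2-Eb1, the beta chain of I-E, had 39.9, 138 and 188 CPM in cardiomyocytes, against 290, 911 and 1006 CPM in fibroblasts. These chains were again fully apart between the cell types.

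The loading genes were lower in level. H2-DMa had 3.44, 12.6 and 19.9 CPM in cardiomyocytes, against 15.5, 39.1 and 47.1 CPM in fibroblasts. H2-DMb1 had 1.92, 13.6 and 17.9 CPM in cardiomyocytes, against 18.7, 50.6 and 55.8 CPM in fibroblasts. Ciita had 0.137, 3.76 and 7.23 CPM in cardiomyocytes, against 3.88, 11.1 and 16.9 CPM in fibroblasts. The ranges of H2-DMa and Ciita overlapped, and those of H2-DMb1 did not.

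**Figure D1:**
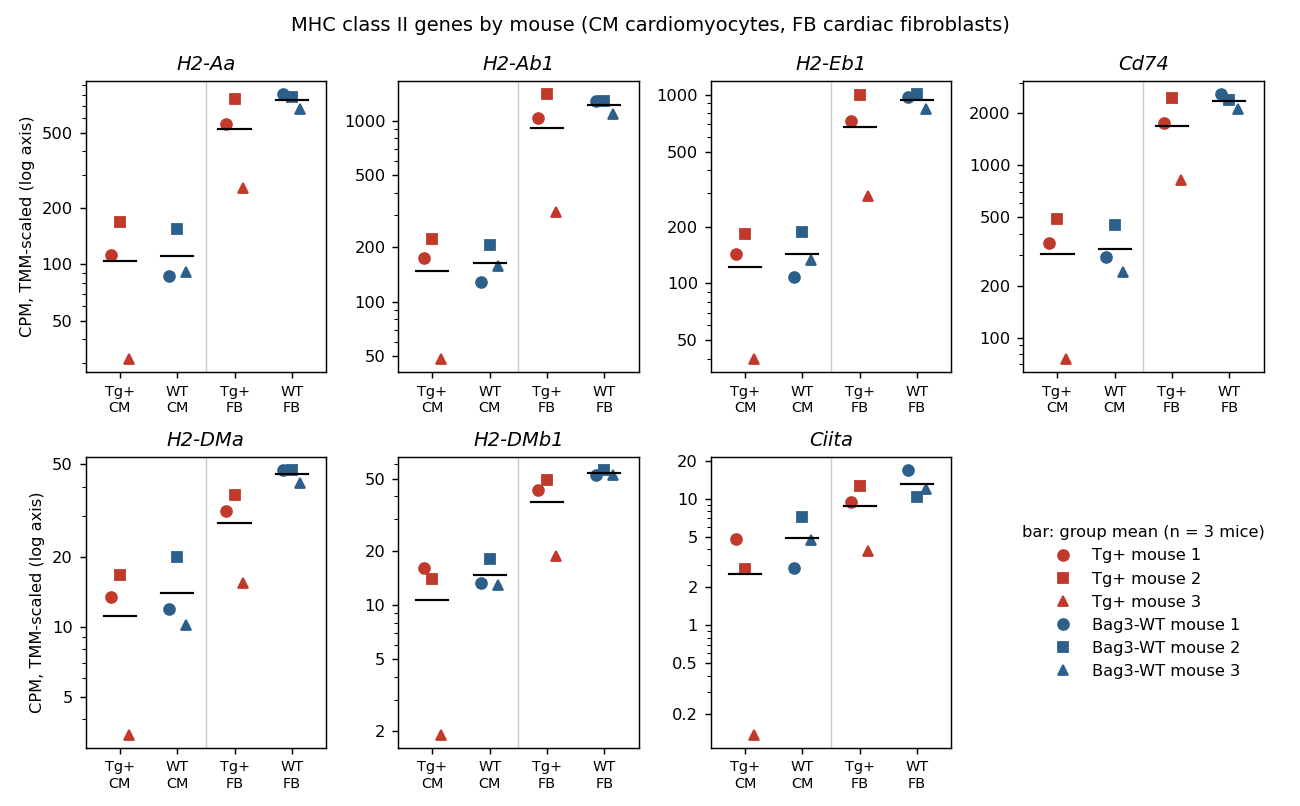
Level of each class II gene by mouse, in CPM on a log axis. Each symbol is 1 mouse, red for Tg+ and blue for Bag3-WT, and bars are group means of 3 mice. Tg+ mouse 3 (red triangle) is the lowest of the 6 mice in all 7 genes and both cell types, and fibroblasts (FB) lie above cardiomyocytes (CM), with overlapping ranges for H2-DMa and Ciita.

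Fitted within mice (edgeR's quasi-likelihood test, 6 mice, two-sided, Benjamini-Hochberg adjusted over 13891 genes), the largest difference was that of Cd74, with a log2 fold change of −2.79 ± 0.25 (SE; 6.94-fold lower in cardiomyocytes, adjusted p = 9.57e-06). H2-Ab1 was 6.82-fold lower (log2 −2.77 ± 0.20, adjusted p = 3.14e-06). H2-Aa was 6.27-fold lower (−2.65 ± 0.22, adjusted p = 7.52e-06) and H2-Eb1 6.29-fold lower (−2.65 ± 0.21, adjusted p = 4.36e-06). H2-DMb1 was 3.91-fold lower (−1.97 ± 0.23, adjusted p = 7.31e-05) and H2-DMa 3.06-fold lower (−1.61 ± 0.20, adjusted p = 1.25e-04). Ciita, which had the widest error, was 3.32-fold lower (−1.73 ± 0.39, adjusted p = 0.00423). In a bulk sample, fewer cells of a type and less RNA per cell cannot be told apart.

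All 7 genes passed in the lower direction, where 24.9% of the genes tested did. Their median log2 fold change was −2.65, beside −0.04 over all genes tested. Over all genes, 2734 were higher and 3456 lower in cardiomyocytes. With library size alone and no composition scaling these counts were 457 and 6616, since that scaling moved the median of all genes to −0.95, and the class II median was then −3.57. In 5 of the 7 genes every cardiomyocyte value lay below every fibroblast value, a pattern that 15.8% of the genes tested had. Without Tg+ mouse 3 all 7 genes passed too, with log2 fold changes of −2.79 for H2-Ab1 to −1.49 for Ciita.

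Within single mice, as labelled, all 7 genes were lower in cardiomyocytes in 6 of 6 mice, the pairing of Tg+ mouse 3 being in doubt. The log2 difference of Cd74 was −2.32, −2.33 and −3.45 in Tg+ mice 1 to 3, and −3.14, −2.41 and −3.13 in Bag3-WT mice 1 to 3. That of H2-DMa was −1.24, −1.15 and −2.17 in the Tg+ mice, and −1.99, −1.24 and −2.03 in the Bag3-WT mice. In each mouse the invariant chain differed more between the cell types than this loading gene did. The same held for H2-Aa, H2-Ab1 and H2-Eb1 against H2-DMa in 6 of 6 mice, by medians of −1.05 to −1.32 for the chains and −1.16 for Cd74. Against H2-DMb1 it held in 6 of 6 mice for Cd74 and in 5 of 6 for each chain, with medians of −0.71 to −0.92. These differences between members were seen in the same values and were not tested.

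**Figure D2:**
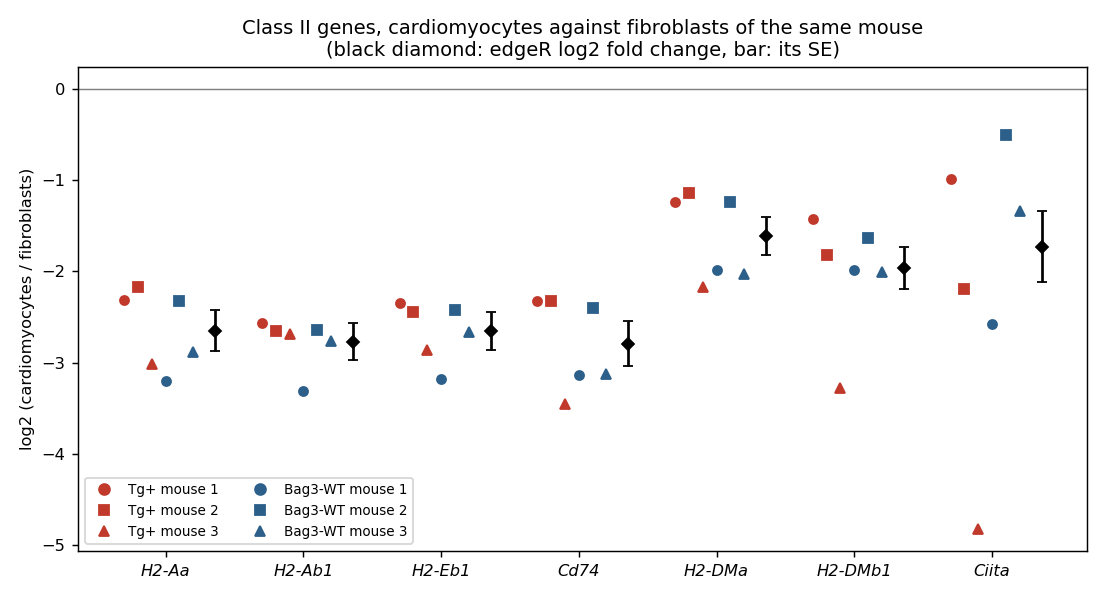
Log2 ratio of cardiomyocytes over fibroblasts of the same mouse for each class II gene, 1 symbol per mouse (red Tg+, blue Bag3-WT); the black diamond is the edgeR log2 fold change and its bar the SE. All symbols lie below 0, and the 3 chains and Cd74, at −2.65 to −2.79, lie lower than H2-DMa at −1.61 and H2-DMb1 at −1.97.

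Set per kilobase of the longest protein-coding transcript (GENCODE M21, GRCm38), the order of the levels was the same in both cell types. Cd74 (chr18:60803848-60812652) led with 224 ± 106 CPM per kb in cardiomyocytes and 1430 ± 463 CPM per kb in fibroblasts (SD, n = 6). H2-Ab1 (chr17:34257689-34269419) followed with 129 ± 51.4 in cardiomyocytes and 877 ± 324 in fibroblasts. H2-Aa (chr17:34282744-34287823) came next, with 95.5 ± 44.3 in cardiomyocytes and 565 ± 185 CPM per kb in fibroblasts.

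H2-Eb1 (chr17:34305867-34316674) had 79.3 ± 32.7 CPM per kb in cardiomyocytes and 483 ± 165 in fibroblasts. Then came H2-DMb1 (chr17:34153072-34160230), with 9.00 ± 3.97 in cardiomyocytes and 32.2 ± 9.71 in fibroblasts. H2-DMa (chr17:34119541-34139101) had 6.26 ± 2.82 CPM per kb in cardiomyocytes and 18.2 ± 5.97 in fibroblasts. Ciita (chr16:10480059-10528418) was last, with 0.62 ± 0.40 CPM per kb in cardiomyocytes and 1.81 ± 0.71 in fibroblasts. The ranges of the mean ± SD overlapped between neighbours from Cd74 to H2-Eb1, and between H2-DMb1 and H2-DMa, in both cell types. They did not between H2-Eb1 and H2-DMb1, or between H2-DMa and Ciita. Within single mice each neighbouring pair stood in this order in 6 of 6 mice in fibroblasts. In cardiomyocytes H2-DMb1 and H2-DMa did so in 5 of 6 mice, Tg+ mouse 3 being the exception, and the other pairs in 6 of 6.

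The proportions among the chains and Cd74 were steadier than their levels. H2-Eb1 stood at 0.843 ± 0.034 of the CPM of H2-Ab1 in cardiomyocytes and 0.780 ± 0.080 in fibroblasts (SD, n = 6). Cd74 stood at 1.96 ± 0.34 times H2-Ab1 in cardiomyocytes and 1.99 ± 0.34 times in fibroblasts. On the log2 scale, the SD of the H2-Eb1 to H2-Ab1 ratio over the 6 mice was 0.06 in cardiomyocytes and 0.14 in fibroblasts, while that of the H2-Ab1 level was 0.80 in cardiomyocytes and 0.81 in fibroblasts. Without Tg+ mouse 3 the contrast was smaller, with 0.06 in cardiomyocytes and 0.07 in fibroblasts for the ratio, and 0.31 in cardiomyocytes and 0.19 in fibroblasts for the level. The SD of the Cd74 to H2-Ab1 ratio was then 0.24 in cardiomyocytes and 0.10 in fibroblasts. The ratio of Ciita to Cd74 ran from 0.0018 to 0.0195 in cardiomyocytes, where Ciita had 1 to 121 counts per column, and from 0.0043 to 0.0066 in fibroblasts, where it had 111 to 606. The 7 genes summed to 0.0533 to 0.363% of nuclear counts in cardiomyocytes and 0.434 to 1.31% in fibroblasts.

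The close relatives were listed at low levels. H2-DMb2, the near copy of H2-DMb1 with which it may share reads, averaged 1.66 ± 1.02 CPM in cardiomyocytes and 6.10 ± 2.53 CPM in fibroblasts (SD, n = 6; log2 −2.01 ± 0.43, adjusted p = 0.00328, edgeR). H2-Ob, the beta chain of the DM inhibitor H2-O, averaged 1.30 ± 0.98 CPM in cardiomyocytes and 6.74 ± 3.17 CPM in fibroblasts (−2.51 ± 0.44, adjusted p = 0.00110). Its partner H2-Oa had 0 to 16 counts per cardiomyocyte column and 11 to 51 per fibroblast column, and did not pass (−1.60 ± 0.67, adjusted p = 0.0739). H2-Eb2 had 0 to 4 counts in cardiomyocyte columns and 16 to 68 in fibroblast columns (adjusted p = 0.00252). H2-Ea was not analysed here. Of these 4 relatives 3 were lower in cardiomyocytes, beside 24.9% of all genes tested.

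Of 8 tested genes that prepare class II molecules and their peptides, 6 were lower in cardiomyocytes and 0 higher, with a median log2 fold change of −0.88. Over all genes tested, 24.9% were lower. Ctss, the protease cathepsin S that trims the invariant chain, averaged 46.8 ± 23 CPM in cardiomyocytes and 198 ± 72.7 CPM in fibroblasts (SD, n = 6; −2.18 ± 0.23, adjusted p = 3.46e-05, edgeR). The proteases Ctsb and Lgmn were lower as well (−2.20 ± 0.22, adjusted p = 2.34e-05, and −1.70 ± 0.29, adjusted p = 9.22e-04). Ctsl, cathepsin L, was 1.93-fold lower (adjusted p = 0.00415). The genes that did not pass were March1 (−0.61 ± 0.28, adjusted p = 0.0966) and March8 (−0.37 ± 0.20, adjusted p = 0.158), whose products tag class II molecules and other surface proteins with ubiquitin.

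Among 17 tested regulators of class II transcription, 8 were lower and 2 higher in cardiomyocytes, with a median of −0.71. Over all genes tested, 24.9% were lower. Those with the lowest p were as follows. Spi1, which encodes PU.1 of myeloid and B cells, was 10.6-fold lower (adjusted p = 1.62e-06, edgeR), Irf8 5.72-fold (adjusted p = 3.14e-06) and Irf1 7.61-fold (adjusted p = 2.49e-06). Jak2, a kinase of the interferon gamma receptor, was 6.06-fold lower (adjusted p = 2.39e-06). Irf4, a factor of B cells and dendritic cells, had the lowest log2 fold change of the list, −3.81 ± 0.40 (adjusted p = 3.31e-05).

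The RFX subunits on the X box did not move as a block. Rfxank was higher in cardiomyocytes (log2 0.83 ± 0.22, adjusted p = 0.0118, edgeR). Rfxap had a log2 fold change of −0.03 ± 0.22 (adjusted p = 0.927). Rfx5 had −1.83 ± 0.80 (adjusted p = 0.0874) and was very uneven. It had 180, 0 and 8 counts in cardiomyocytes of Tg+ mice 1 to 3, and 1, 49 and 51 in those of Bag3-WT mice 1 to 3. In fibroblasts it had 341, 232 and 199 counts in the Tg+ mice, and 251, 217 and 189 in the Bag3-WT mice. Ifng, the gene of interferon gamma itself, had 0, 2 and 0 counts in Tg+ and 0 in all Bag3-WT cardiomyocyte columns. In fibroblasts it had 22, 0 and 21 counts in the Tg+ mice and 31, 7 and 0 in the Bag3-WT mice. It was too low to be tested.

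The genes called in related pathways were all lower in cardiomyocytes, a direction in which 24.9% of the genes tested passed. Of 20 class I pathway genes, 12 were lower and 0 higher in cardiomyocytes (median −0.92). They included H2-Q6 (−2.72 ± 0.21, adjusted p = 4.07e-06, edgeR), H2-Q4 (−2.39 ± 0.21, adjusted p = 9.33e-06), H2-Q7 (−1.69 ± 0.19, adjusted p = 6.32e-05) and Nlrc5, the class I counterpart of Ciita (−2.86 ± 0.26, adjusted p = 1.33e-05). Class I genes are near-identical copies, so reads may have been split between them. All 6 costimulation genes were lower (5 of 6 without Tg+ mouse 3; median −2.96), led by Cd40 and Cd86, whose products give T cells their costimulatory signal, with log2 fold changes of −4.05 ± 0.27 and −4.32 ± 0.36.

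Of 11 interferon gamma response genes, 10 were lower and 0 higher (median −1.71). The chemokine gene Cxcl10 averaged 1.55 ± 0.63 CPM in cardiomyocytes and 311 ± 70.5 CPM in fibroblasts (SD, n = 6; adjusted p = 3.91e-07). The GTPase genes Gbp6, Iigp1 and Irgm1 were 3.50-fold, 5.43-fold and 4.93-fold lower. Of 5 genes around CD74 as a receptor 2 were lower, beside 24.9% of all genes tested. Cd44, the signalling partner of CD74, was 9.42-fold lower (adjusted p = 1.17e-05, edgeR) and Cxcr4 6.33-fold lower (adjusted p = 2.07e-05). Mif, the ligand, had a log2 fold change of −0.29 ± 0.21 (adjusted p = 0.287) and Cxcr2 one of −1.15 ± 0.49 (adjusted p = 0.0753).

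**Figure D3:**
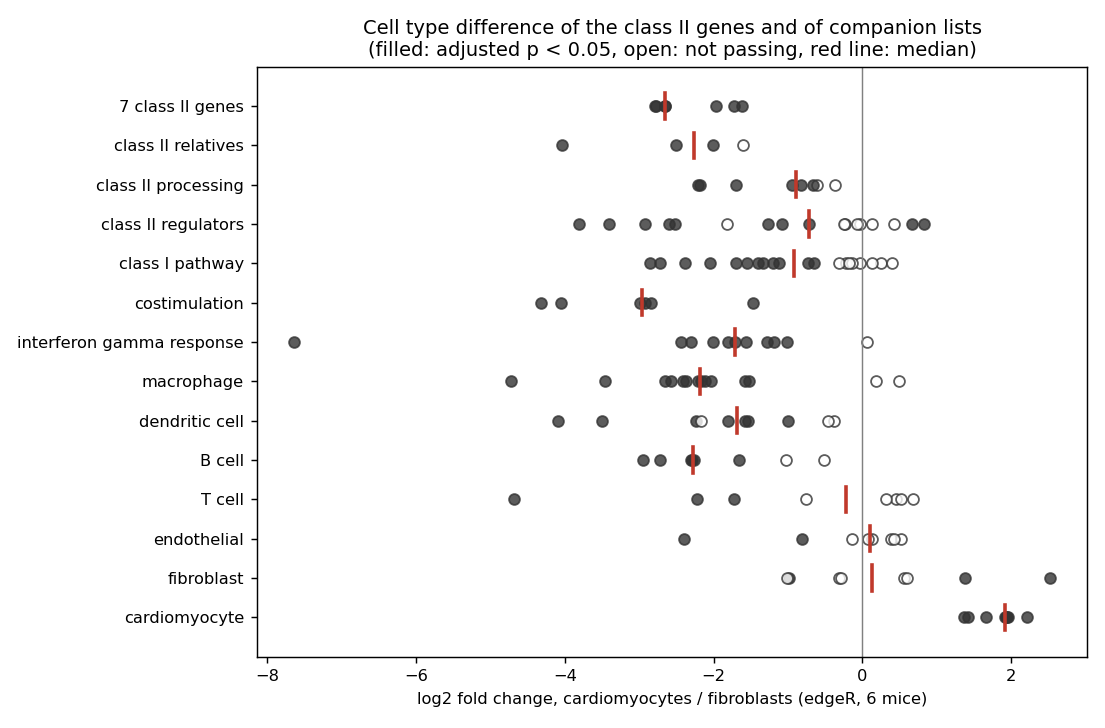
Log2 fold change of cardiomyocytes over fibroblasts (edgeR, 6 mice) for the 7 class II genes and the members of companion lists; each point is 1 gene, filled where the adjusted p is below 0.05, and the red line is the list's median. The class II median is −2.65, beside −2.19 for macrophage markers, −2.96 for costimulation genes and 1.92 for cardiomyocyte markers.

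Most macrophage, dendritic cell and B cell markers were lower in cardiomyocytes, as the class II genes were, and most T cell markers did not pass. Of 14 macrophage markers 12 were lower and 0 higher in cardiomyocytes, with a median log2 fold change of −2.19. Over all genes tested, 24.9% were lower. Ccr2 and Cx3cr1 did not pass, with log2 fold changes of 0.49 and 0.18. Without Tg+ mouse 3, 12 macrophage markers were lower and 1 higher, and the highest log2 fold change was 0.89. The monocyte and macrophage receptor gene Cd14 averaged 23.5 ± 7.35 CPM in cardiomyocytes and 619 ± 194 CPM in fibroblasts (SD, n = 6; 26.4-fold lower, adjusted p = 4.41e-07, edgeR). Cd68 was 11.0-fold lower, Adgre1 5.97-fold and Itgam 5.32-fold.

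The macrophage list summed to 448 to 1661 CPM in cardiomyocytes and 2277 to 7305 CPM in fibroblasts, and none of its 14 genes was at 0 in any column. Of 10 dendritic cell markers 7 were lower (median −1.69), including Ccr7 (17.0-fold), Itgax (4.69-fold), Sirpa (2.91-fold) and Xcr1 (11.3-fold). They summed to 37.5 to 99.3 CPM in cardiomyocytes and 115 to 303 CPM in fibroblasts. Of 8 B cell markers 6 were lower (median −2.28), among them Cd79a (4.89-fold), Cd22 (7.73-fold) and Fcmr (4.91-fold), with sums of 2.47 to 14.8 CPM in cardiomyocytes and 8.36 to 52.2 CPM in fibroblasts. Of 8 T cell markers 3 were lower (Lag3, Il7r and Cd4, median −0.22 over the list), beside 24.9% of all genes tested. The other 5 did not pass, with log2 fold changes of −0.76 for Cd3d, 0.32 for Cd8a, 0.45 for Cd3g, 0.52 for Lat and 0.68 for Cd3e. The T cell list had sums of 3.16 to 22.6 CPM in cardiomyocytes and 27.9 to 61.9 CPM in fibroblasts. No marker of these lists was at 0 in any fibroblast column, while 5 dendritic cell, 5 B cell and 2 T cell markers were at 0 in the cardiomyocytes of Tg+ mouse 3. Some of these were also at 0 in cardiomyocytes of other mice, among them Xcr1 in WT mouse 1 and Fcmr in WT mouse 3.

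The class II level relative to the macrophage, dendritic cell and B cell sums differed between the cell types. The summed CPM of the 7 genes was 0.735, 0.758 and 0.448 of the macrophage sum in Tg+ cardiomyocytes and 0.636, 0.627 and 0.473 in Bag3-WT cardiomyocytes. In fibroblasts it was 1.03, 1.07 and 0.754 in the Tg+ mice and 0.788, 0.942 and 0.780 in the Bag3-WT mice. The ratio was lower in cardiomyocytes in 6 of 6 mice as labelled, the pairing of Tg+ mouse 3 being in doubt. So were the ratios to the dendritic cell and B cell sums. These sums weigh the most abundant markers most, and single markers differed. The class II median log2 fold change was −2.65. That of Lyz2 was −1.57 and that of Adgre1 −2.58, but that of Cd68 was −3.455 and that of Cd14 −4.72. The part of these cells in the class II values was not tested.

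**Figure D4:**
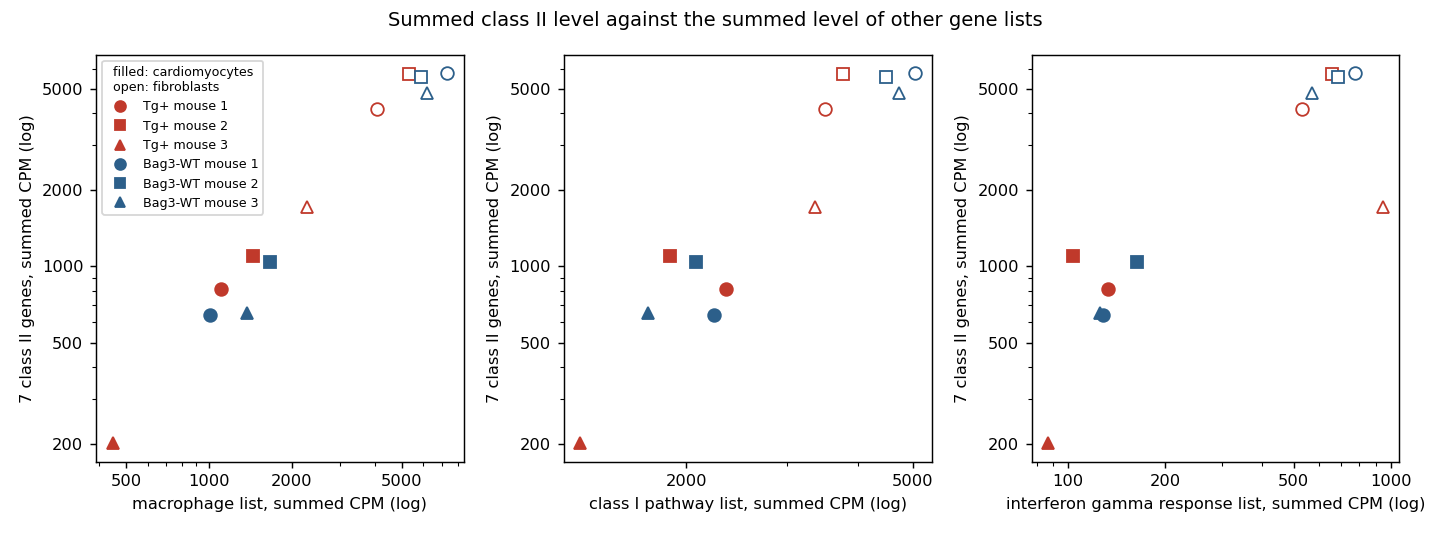
Summed CPM of the 7 class II genes against the summed CPM of the macrophage, class I pathway and interferon gamma response lists (log axes), 1 symbol per mouse and cell type, filled for cardiomyocytes and open for fibroblasts. Tg+ mouse 3 (red triangle) is lowest for class II and macrophage genes in both cell types, while its fibroblasts have the highest interferon gamma response sum, 945 CPM.

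By genotype, no class II gene passed in fibroblasts. H2-DMa had 31.5, 36.7 and 15.5 CPM in the Tg+ mice, against 47.1, 47.1 and 41.4 CPM in the Bag3-WT mice. H2-DMb1 had 43.1, 49.1 and 18.7 CPM in the Tg+ mice, against 52.2, 55.8 and 52.2 CPM in the Bag3-WT mice. In these loading genes every Tg+ value lay below every Bag3-WT value, and 7.76% of the genes tested had that pattern. H2-DMa had a log2 fold change of −0.68 ± 0.30 (SE; adjusted p = 0.768, edgeR, 3 against 3 mice) and H2-DMb1 one of −0.52 ± 0.33 (adjusted p = 0.768).

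Cd74 had 1766, 2451 and 824 CPM in Tg+ fibroblasts, against 2579, 2375 and 2105 CPM in Bag3-WT fibroblasts. H2-Ab1 had 1028, 1396 and 312 CPM in the Tg+ mice, against 1278, 1284 and 1080 CPM in the Bag3-WT mice. In both genes Tg+ mouse 2 lay among or above the Bag3-WT mice. Tg+ mouse 1 lay below all of them, and Tg+ mouse 3 lay much further below. Their log2 fold changes were −0.47 ± 0.41 for Cd74 and −0.40 ± 0.49 for H2-Ab1.

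H2-Aa had 557, 760 and 255 CPM in Tg+ fibroblasts, against 805, 777 and 675 CPM in Bag3-WT fibroblasts (−0.51 ± 0.38). H2-Eb1 had 727, 997 and 290 CPM in the Tg+ mice, against 976, 1006 and 845 CPM in the Bag3-WT mice (−0.48 ± 0.42). Ciita had 9.48, 12.7 and 3.88 CPM in the Tg+ mice, against 16.9, 10.3 and 11.9 CPM in the Bag3-WT mice (−0.56 ± 0.40). In all 3 genes Tg+ mouse 2 lay within the Bag3-WT range, and Tg+ mice 1 and 3 lay below it.

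Over the 7 genes the adjusted p ran from 0.768 to 0.862 and the median log2 fold change was −0.51, beside 0.01 over all genes. The share of genes called was 0% of 13571, with 690 at an unadjusted p under 0.05, and DESeq2 called 6. Without Tg+ mouse 3 the median of the 7 was −0.17, H2-Ab1 had 0.02 and H2-DMa −0.38, and none passed. Without Tg+ mouse 2 the median was −0.88, with −0.93 for H2-DMa and −0.94 for Ciita, and none passed either.

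The macrophage markers had a median log2 fold change of −0.73 in fibroblasts by genotype, with 14 of 14 below 0 and 0 called. In 9 of these 14 every Tg+ value lay below every Bag3-WT value, a pattern that 7.76% of the genes tested had. Without Tg+ mouse 3 the median was −0.41, with 14 of 14 below 0, 0 called and 9 of 14 without overlap, where 12.7% of the genes tested had no overlap in that direction. The macrophage sum was 4057, 5339 and 2277 CPM in Tg+ fibroblasts, against 7305, 5899 and 6162 CPM in Bag3-WT fibroblasts, and the groups did not overlap. The same pattern held for 6 of 8 class II processing genes (Ctss, Ctsb, Ctsd, Lgmn, March8 and Sppl2a, all without a call) and for 8 of 20 class I pathway genes; without Tg+ mouse 3 these counts were 6 of 8 and 10 of 20. The part of the macrophage markers in the class II values was not tested.

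In cardiomyocytes no class II gene passed by genotype either. Cd74 had 354, 488 and 75.3 CPM in the Tg+ mice, against 293, 448 and 241 CPM in the Bag3-WT mice. H2-Ab1 had 174, 221 and 48.5 CPM in the Tg+ mice, against 129, 206 and 159 CPM in the Bag3-WT mice. H2-Aa had 112, 169 and 31.5 CPM in the Tg+ mice, against 87.3, 155 and 91.5 CPM in the Bag3-WT mice. In each of these, Tg+ mouse 2 was the highest of the 6 mice and Tg+ mouse 3 the lowest, so the genotypes overlapped fully.

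H2-Eb1 had 142, 183 and 39.9 CPM in Tg+ cardiomyocytes, against 108, 188 and 134 CPM in Bag3-WT cardiomyocytes. H2-DMa had 13.4, 16.6 and 3.44 CPM in the Tg+ mice, against 11.9, 19.9 and 10.1 CPM in the Bag3-WT mice. H2-DMb1 had 16.0, 13.9 and 1.92 CPM in the Tg+ mice, against 13.2, 17.9 and 12.9 CPM in the Bag3-WT mice. Leaving Tg+ mouse 3 aside, the other Tg+ values of these genes lay within the Bag3-WT range.

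Ciita had 4.78, 2.78 and 0.137 CPM in Tg+ cardiomyocytes, against 2.82, 7.23 and 4.70 CPM in Bag3-WT cardiomyocytes. The value of Tg+ mouse 3 was 1 count (95% exact Poisson interval 0.00348 to 0.766 CPM, counting error only). Log2 fold changes of the 7 genes ran from −0.89 ± 0.90 for Ciita to −0.09 ± 0.58 for H2-Aa, with a median of −0.23 beside 0.01 over all genes, and every adjusted p was 1.00 (edgeR). The share of genes called was 0% of 12439, with 89 at an unadjusted p under 0.05, and DESeq2 called 3. Without Tg+ mouse 3 the median was 0.19, and 6 of the 7 genes turned to values above 0, from 0.03 for H2-DMb1 to 0.37 for Cd74. Ciita then had −0.37. With library size alone, all 7 values lay above 0 (0.22 for Ciita to 0.91 for Cd74), where the median of all genes was 0.84.

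**Figure D5:**
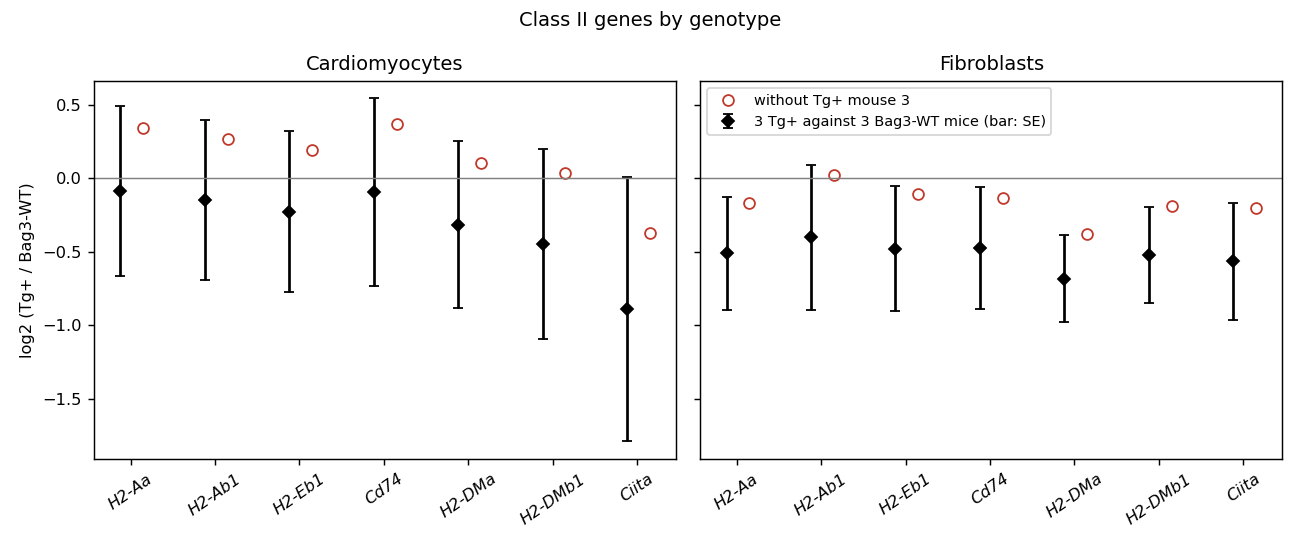
Log2 fold change of Tg+ over Bag3-WT for each class II gene in cardiomyocytes and fibroblasts (edgeR, 3 against 3 mice, bar: SE), with the value without Tg+ mouse 3 as an open red circle. No gene passed, and leaving out that mouse moved the median to 0.19 in cardiomyocytes and −0.17 in fibroblasts.

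The genotype difference was also compared between the cell types as an interaction. The 7 genes had log2 values of −0.65 ± 0.80 for Ciita to 0.31 ± 0.46 for H2-Aa, with an adjusted p of 1.00 for each (edgeR). The share of genes called was 0% of 13891, with 124 at an unadjusted p under 0.05, and DESeq2 called 1. The errors, of 0.42 to 0.80 on the log2 scale, are wider than the values of the 7 genes. Their median was 0.20, and 0.36 without Tg+ mouse 3.

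In fibroblasts Tg+ mouse 3 lay below the next lowest mouse by 2.04-fold for H2-DMa to 3.30-fold for H2-Ab1. In cardiomyocytes it lay below by 2.66-fold for H2-Ab1 to 20.2-fold for Ciita. The dendritic cell, B cell and T cell sums of this mouse were also the lowest in both cell types, and so was the macrophage sum, at 448 CPM in its cardiomyocytes (1013 to 1661 CPM in the other mice) and 2277 CPM in its fibroblasts (4057 to 7305 CPM in the others). Its class I pathway sum was lowest too, at 1303 CPM in cardiomyocytes (1712 to 2348 CPM in the others). In fibroblasts it was 3360 CPM, close to the lowest of the others (3504 to 5042 CPM). Its interferon gamma response sum was the lowest in cardiomyocytes, at 86.9 CPM (104 to 164 CPM in the others), but the highest in fibroblasts, at 945 CPM (531 to 778 CPM in the others).

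The genes whose pattern over the 12 columns was most like the mean of the class II genes, after each cell type's mean was taken out of log2(CPM + 0.5), were Pld4, Csf1r, Mpeg1, Rab3il1, Tmem176b, Laptm5, Cd37 and Selplg. Their Pearson r ran from 0.977 for Selplg to 0.986 for Pld4, among 8881 genes with a mean of at least 5 CPM. Over the 10 columns without Tg+ mouse 3, the r of these genes was 0.762 for Cd37 to 0.910 for Pld4. The columns share mice and libraries, so these values are descriptions. Csf1r, which stands in the macrophage list, had 21.6 CPM in the cardiomyocytes of Tg+ mouse 3 (at least 103 CPM in each other mouse) and 167 CPM in its fibroblasts (at least 422 CPM in each other mouse).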

How the data were processed

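The deposited table used for all tests held expected counts (estimated reads per gene, 44.6% of values not whole), and a deposited second table held a normalized signal, the count divided by a factor that differs between genes and libraries; its factors served only as an alternative. Per the submitters' processing notes the build was GRCm38.p6 and the tools were R 3.4.4, kallisto 0.44.0 and DESeq2 1.18.1, without their roles; the labels do not name the annotation, filters or strand. Per the labels' protocols, oligo(dT) RNA was sequenced and cardiomyocyte samples had a further round of sequencing; whether rep1 and rep2 are those rounds is not stated. Their counts were summed per mouse and rounded. In 19 gene and mouse pairs with at least 100 counts in both repeats, the repeats differed by log2 −0.17 to 0.19. These pairs were all of the chains and Cd74, and none was of Tg+ mouse 3. Pairs with fewer counts ran from −2.37 for Ciita in WT mouse 3 to 1.475 for Ciita in WT mouse 1. There were 0 columns without a sample.

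Tests used edgeR 4.0.16 (filterByExpr, TMM, robust glmQLFit and glmQLFTest) in R 4.3.3, two-sided, with Benjamini-Hochberg adjusted p below 0.05 over all genes tested. Cell type and interaction were fitted with the mouse as block, since the labels tie both cell types to an animal code. Genotype was fitted within each cell type, without the code letter as a term. By mouse number, that letter was F, M and F in the Tg+ mice and F, M and M in the Bag3-WT mice. It was therefore not balanced over genotype. The SE is the log2 fold change over the square root of F. Shown CPM are TMM-scaled over the 12 columns, mitochondrial genes included. Alternatives were DESeq2 1.42.0, limma 3.58.1 (voom), other scalings and filters, the code letter, single repeats and leaving out each mouse. The scripts were tested on simulated counts.

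The 7 genes, the lists and the naming rule were chosen with earlier results of these data known. Named were the 7 genes, their relatives, Bag3, Ifng and the RFX genes, up to 4 genes with the lowest cell type p per list, and the 8 most alike genes; further genes (those named for groups that do not overlap, Irf4, March1, March8, the T cell markers that did not pass and the Y-linked genes) were chosen after their values were seen. A gene chosen in this way may be left unreported.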

Additional observations from a re-analysis of the deposited data

Results flagged for a closer look

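Within-mouse log2 differences (cardiomyocytes minus fibroblasts) of the 7 genes over the 6 mice were checked for a mouse far from the others; such a gap appears in about 1 in 20 groups by chance. For H2-Ab1 the value of WT mouse 1, −3.31, lay apart from the other mice, at −2.77 to −2.57. For H2-DMb1 the value of Tg+ mouse 3, −3.28, lay apart from the others, at −2.01 to −1.43; its cardiomyocyte column held 14 counts of this gene.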

How the results depend on the processing

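The cell type result held under every alternative run: all 113 values of the 7 genes stayed below 0 (−3.71 to −1.49, adjusted p at most 0.0185), and all 7 passed under each of 16 alternatives, with 5040 to 7070 genes called. Without the replicate block (mouse left out) Cd74 had −2.67 and Ciita −1.52. No class II gene passed by genotype or interaction under any alternative. The count of genes called was above 0 with library size only (2 in fibroblasts, 2 in cardiomyocytes, 1 for the interaction) and with DESeq2 (6, 3 and 1).

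Directions by genotype in cardiomyocytes were unstable, and the cause was not tested. With library size only, which moved the median of all genes to 0.84, H2-Aa had 0.85, H2-Ab1 0.79, H2-Eb1 0.71, H2-DMa 0.69, H2-DMb1 0.61, Cd74 0.91 and Ciita 0.22. With the code letter as a term, H2-Aa had 0.091, H2-Ab1 0.0353 and Cd74 0.029. Leaving out each mouse gave −0.61 to 0.35 for H2-Aa, −0.55 to 0.27 for H2-Ab1, −0.64 to 0.19 for H2-Eb1, −0.70 to 0.10 for H2-DMa, −0.84 to 0.0336 for H2-DMb1, −0.59 to 0.37 for Cd74 and −1.65 to −0.37 for Ciita; the values above 0 came without Tg+ mouse 3 and, H2-DMb1 excepted, without WT mouse 2. In fibroblasts H2-Ab1 ran from −0.85 to 0.024, and the other 6 genes stayed below 0. For the interaction, leaving out each mouse gave −0.55 to 0.26 for H2-DMb1 and −0.0084 to 0.37 for H2-Eb1, and H2-DMb1 had 0.0737 with library size only and 0.0108 with voom. With library size only the median of all genes was 0.36 in fibroblasts, 0.30 for the interaction and −0.95 for cell type.

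The repeat number did not pair libraries of different genotypes (mean r 0.0086 over 18 pairs of libraries, −0.53 to 0.48). With it as a term and the mouse as block in voom over the 12 cardiomyocyte libraries, Cd74 had −0.42, Ciita −1.39 and 0 genes were called. The rep1 libraries alone gave no value for Ciita by genotype in cardiomyocytes. Values without Tg+ mouse 3 for the lists, the spread of levels and the overlap of genotypes were added after seeing the data. Where an arm was left with 2 mice the spread was pooled over both genotypes. Depth limits Ciita, H2-DMa and H2-DMb1 in cardiomyocytes of Tg+ mouse 3, at 1, 25 and 14 counts.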
